A study of Mus musculus with 6 samples.

Results

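The SOX transcription factors bind DNA through a shared HMG box that fits the minor groove and bends the helix. Of the 23420 gene symbols in the deposited count table, 10 SOX genes were examined, taken by symbol: Sox4, Sox11 and Sox12 of the SOXC group, Sox5, Sox6 and Sox13 of the SOXD group, Sox9 of the SOXE group, and Sox7, Sox17 and Sox18 of the SOXF group. All 10 passed the filter on low counts. SOXC proteins are transcriptional activators of progenitor and immature cells, and Sox4 and Sox11 are needed for normal mouse kidney development. SOXD proteins carry no activation domain of their own and act with partners such as SOX9, while SOX9 and its relative SOX8 serve RET signalling in the branching ureteric epithelium, and SOXF proteins specify arterial and lymphatic endothelium.

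RNA was measured by mRNA sequencing of sorted mouse fetal kidney cells at embryonic day 18.5. The Six2-high fraction was positive and the Six2-low fraction negative for the green fluorescence of a Six2-GFP transgene, which marks the cap mesenchyme, the nephron progenitors around the ureteric tips. The embryos had a wild-type mother and a father heterozygous for the transgene. Kidneys of the transgenic embryos of a litter were processed together, apart from those of littermates without it, on which the gate was set. The Six2-low fraction is therefore a mixture of kidney cell types, less the red blood cells that a scatter gate was meant to remove. There were 3 libraries per fraction. Replicate 1 carries the date tag 14_6 and the TRI kit, replicate 2 the tag 17_7 and the Norgen kit, and replicate 3 the tag 17_7 and the TRI kit. The labels do not say that replicates 2 and 3 came from different litters, so the p-values below measure only how far these libraries scatter, which may be technical.

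The libraries held between 23535399 and 29791421 counts. Six2 itself averaged 1224 ± 332 CPM (counts scaled to a common library size) in Six2-high, against 15.2 ± 7.05 CPM in Six2-low (SD, n = 3 each), which fits the labels. Markers of cap mesenchyme rose in 10 of 10 cases, while all 12 endothelial, all 10 ureteric and all 11 tubule and podocyte markers fell in Six2-high, as did 8 of 9 immune markers. The library of Six2-high replicate 3 stood apart: the ribosomal RNA gene Rn45s took 9.59% of its counts, against 0.499% to 0.676% in the other 5 libraries. Without it, 3 SOX genes rose and 5 fell, Sox9 no longer passing, and with Rn45s and Lars2 taken out of all libraries 3 rose and 6 fell, as in the results given here.

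The start of the HMG box is shown because the members share most of its letters, which bears on whether short reads can be told apart between them. It was located in each translated transcript by the amino acids RPMNAFM, so likeness over those codons was partly set by the search. The following 27 coding bases of each gene open the box, 5′ to 3′ on the coding strand of build mm10, from the GENCODE M21 transcripts, and capitals mark bases that differ from the commonest base at that position among the 10 genes.
Sox4: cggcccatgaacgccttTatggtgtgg
Sox11: cggcccatgaacgccttcatggtgtgg
Sox12: cggccGatgaacgcGttcatggtgtgg
Sox5: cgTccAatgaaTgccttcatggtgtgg
Sox6: cgAccAatgaaTgcGttcatggtTtgg
Sox13: AgAcccatgaaTgccttcatggtgtgg
Sox9: cgAcccatgaacgccttcatggtgtgg
Sox7: cggcccatgaaTgccttcatggtgtgg
Sox17: cggccGatgaacgccttTatggtgtgg
Sox18: cggcccatgaacgccttcatggtgtgg
Sox11 (chr12:27342232-27342258, minus strand) and Sox18 (chr2:181671255-181671281, minus) carried the same 27 bases, and Sox6 (chr7:115489736-115489762, minus) differed most, at 5 positions. The stretches of Sox4 (chr13:28952815-28952841, minus), Sox12 (chr2:152397549-152397575, minus), Sox5 (chr6:143841247-143841273, minus), Sox13 (chr1:133385539-133385565, minus), Sox9 (chr11:112782903-112782929, plus), Sox7 (chr14:63943894-63943920, plus) and Sox17 (chr1:4493173-4493199, minus) differed at 1 to 3 positions. Over 207 bases from the same point, identity was 78.3% to 90.8% (median 84.5%) for the 9 pairs within a group and 55.6% to 77.3% (median 63.5%) for the 36 pairs between groups. No stretch of 50 bases was shared between transcripts of any of the 10 genes and those of another SOX gene. Shorter shared stretches were not counted.

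Of the 10 SOX genes, 3 rose, 6 fell and 1 did not pass the test in Six2-high against Six2-low. The 3 SOXC genes rose about as much as each other, Sox5, Sox6 and Sox9 fell, Sox13 did not differ beyond its spread, and the 3 SOXF genes fell to about 1% of their Six2-low level or less. The test was edgeR's quasi-likelihood F test with Benjamini-Hochberg adjustment over 15347 genes, called at an adjusted p under 0.05. Of all genes tested, 50.1% were called, 21.4% as higher and 28.7% as lower. The libraries of the 2 fractions did not overlap for 8 of the 10 SOX genes, all except Sox13 and Sox9, against 60.0% of all genes. The median log2 fold change over all genes was 0.05.

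**Figure D1:**
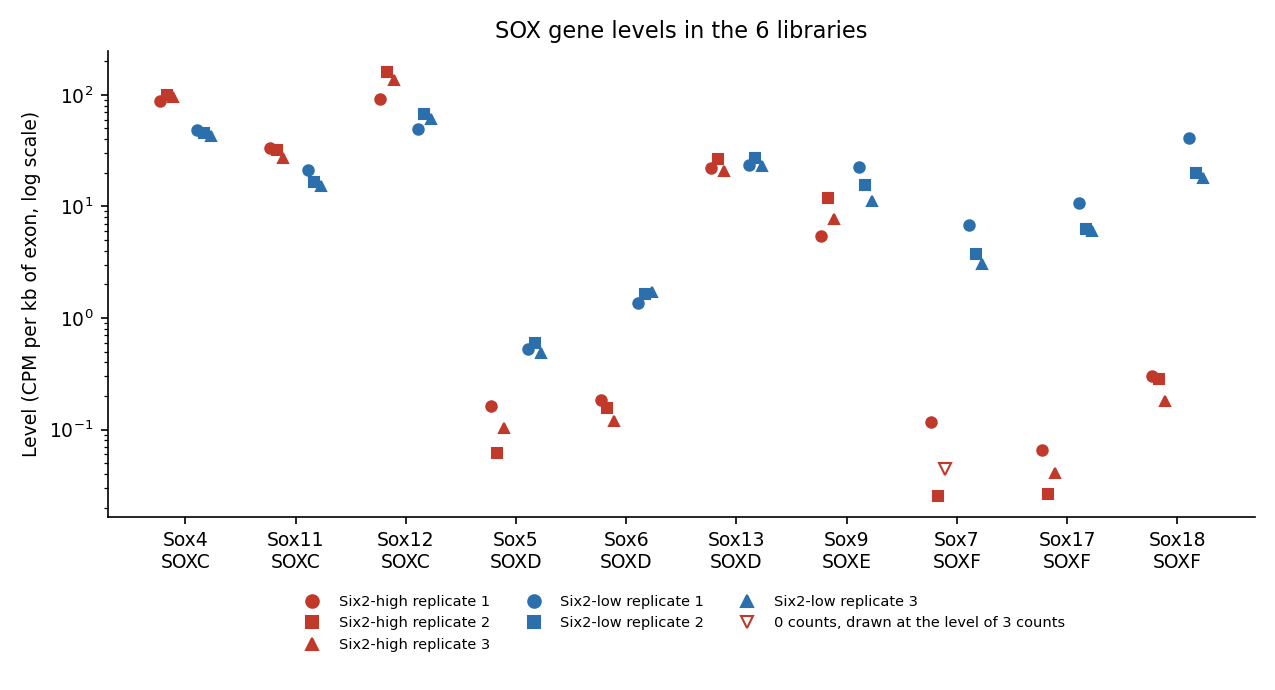
Level of each SOX gene in each library, in CPM per kilobase of exon on a log scale, with Six2-high in red left of Six2-low in blue and 1 symbol per replicate. Sox12 and Sox4 stand highest in both fractions, the 3 SOXF genes show the widest gaps between fractions, and the open triangle marks the 0 counts of Sox7 in Six2-high replicate 3, drawn at the level of 3 counts.

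**Figure D2:**
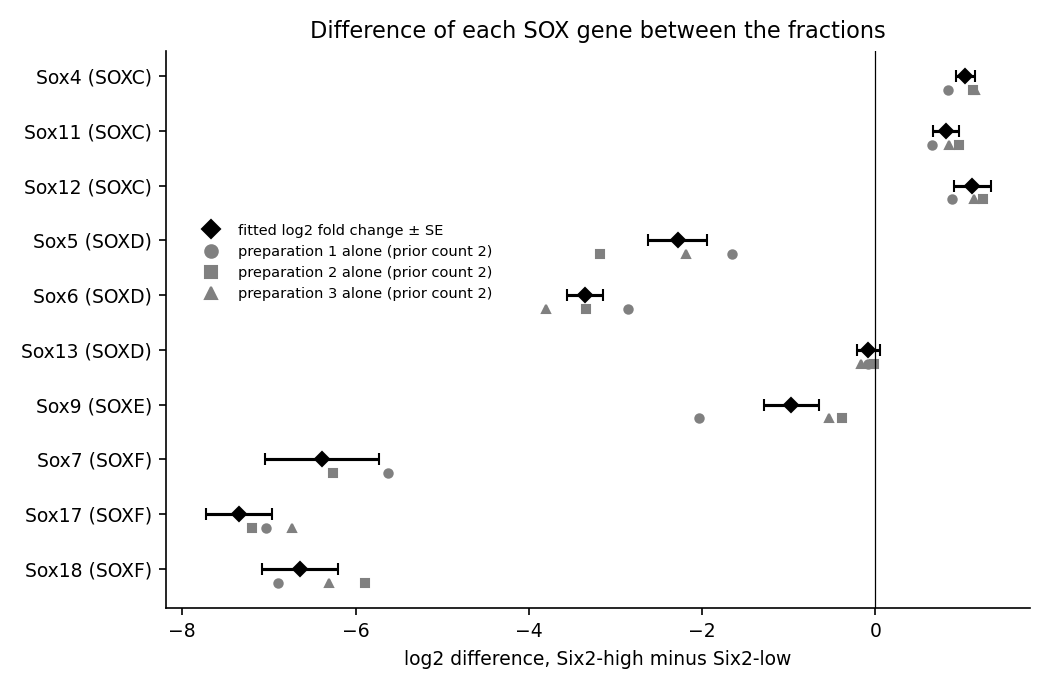
Fitted log2 fold change of each SOX gene (Six2-high minus Six2-low) with its SE, and below it in grey the difference within each preparation, from log2 CPM with 2 added as prior count. The SOXC genes lie between 0.82 and 1.12 and the SOXF genes between -7.35 and -6.39. Sox7 has no grey point for preparation 3, where Six2-high held 0 counts, and the prior count draws the grey SOXF points toward 0.

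Sox4, a SOXC activator studied in nephron progenitors, is a gene of 1 exon at chr13:28948919-28953713. It had 420, 473 and 459 CPM in Six2-high replicates 1 to 3, against 234, 216 and 207 CPM in Six2-low. All 3 Six2-high libraries lay above all 3 Six2-low libraries. The log2 fold change was 1.04 (SE 0.11, edgeR adjusted p = 7.5e-05), and within preparations the log2 difference was 0.84, 1.13 and 1.15.

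Sox11, whose loss causes urinary tract malformations in the mouse, is a gene of 1 exon at chr12:27334264-27342574. It had 275, 267 and 227 CPM in Six2-high replicates 1 to 3, against 175, 136 and 126 CPM in Six2-low, and the fractions did not overlap. Its log2 fold change of 0.82 (SE 0.15, edgeR adjusted p = 0.002) was smaller than that of Sox4, with 0.65, 0.97 and 0.85 within preparations.

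Sox12, a less studied SOXC gene, lies in 1 exon at chr2:152393611-152398063. It had 409, 714 and 599 CPM in Six2-high replicates 1 to 3, against 220, 301 and 272 CPM in Six2-low. In each fraction replicate 1 was the lowest and replicate 2 the highest, and the fractions did not overlap. The log2 fold change was 1.12 (SE 0.21, edgeR adjusted p = 0.0024), with 0.89, 1.24 and 1.14 within preparations.

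The 250 bases before the start of the 3 SOXC genes are shown because these genes moved together. RefSeq promoters (build GRCm38.p6) matched 6 of the 10 SOX genes, and those of Sox4 (chr13:28953700-28953949), Sox11 (chr12:27342719-27342968) and Sox12 (chr2:152398047-152398296) are all on the minus strand. Capitals mark matches, on either strand, of the SOX motifs ACAAAG and ACAATG, the GC box GGGCGG, the CCAAT box CCAAT and the TATA box TATAAA.
Sox4: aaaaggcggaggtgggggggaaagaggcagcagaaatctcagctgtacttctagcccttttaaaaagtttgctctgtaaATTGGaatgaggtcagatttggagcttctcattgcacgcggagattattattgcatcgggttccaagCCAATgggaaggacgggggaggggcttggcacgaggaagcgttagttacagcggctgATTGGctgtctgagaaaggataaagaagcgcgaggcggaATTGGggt
Sox11: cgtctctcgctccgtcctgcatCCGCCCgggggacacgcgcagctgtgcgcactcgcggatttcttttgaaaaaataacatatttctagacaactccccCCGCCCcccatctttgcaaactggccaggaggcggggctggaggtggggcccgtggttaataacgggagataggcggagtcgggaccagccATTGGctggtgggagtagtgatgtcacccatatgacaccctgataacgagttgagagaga
Sox12: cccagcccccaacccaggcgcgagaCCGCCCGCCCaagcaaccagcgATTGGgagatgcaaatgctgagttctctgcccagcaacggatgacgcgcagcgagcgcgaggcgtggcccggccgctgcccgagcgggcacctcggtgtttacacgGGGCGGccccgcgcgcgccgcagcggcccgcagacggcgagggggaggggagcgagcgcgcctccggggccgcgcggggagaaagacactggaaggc
The Sox4 window held 4 CCAAT matches, on one strand or the other, and no GC box. The Sox11 window held 2 GC boxes and 1 CCAAT match, and the Sox12 window 3 GC boxes, 2 of which overlap, and 1 CCAAT match. Among 32851 RefSeq windows of the same length, 33.9% held CCAAT and 32.7% held GGGCGG. None of the 3 windows held either SOX motif, and of all windows 16.5% held ACAAAG and 10.7% held ACAATG. The TATA box (12.4% of all windows), the ETS motif CCGGAA (12.0%) and a Six2 motif, TCAGGTTTC (0.387%), were likewise not among the letters of these 3 windows. GC content was 50.8% for Sox4, 58.0% for Sox11 and 74.4% for Sox12, against a median of 52.4% (quartiles 45.2% and 61.2%) over all windows. These matches describe the letters only.

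Levels can be compared between genes per length, as CPM per kilobase of exon. On that scale Sox12 stood first in both fractions, at 129 ± 34.6 in Six2-high and 59.4 ± 9.20 in Six2-low (SD, n = 3 each). Sox4 stood second, at 94.0 ± 5.74 in Six2-high and 45.7 ± 2.86 in Six2-low. Their libraries overlapped in Six2-high, and in Six2-low the lowest Sox12 value, 49.5, lay just above the highest Sox4 value, 48.8. Sox11 reached 30.8 ± 3.06 in Six2-high and 17.5 ± 3.08 in Six2-low on the same per-length scale.

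The SOXC genes made up 88.3%, 88.2% and 90.0% of the summed per-length level of the 10 SOX genes in Six2-high replicates 1 to 3, against 52.8%, 63.5% and 65.3% in Six2-low. The summed level itself was 241, 330 and 287 CPM per kilobase in Six2-high, against 226, 204 and 183 in Six2-low. Within the SOXC sum, the shares of Sox12 and Sox4 differed less between the fractions of a preparation than between preparation 1 and the other 2. Sox12 took 43.2%, 55.1% and 52.2% of it in Six2-high replicates 1 to 3, against 41.5%, 52.4% and 51.2% in Six2-low. Sox4 took 41.2%, 33.9% and 37.2% in Six2-high, against 40.9%, 35.0% and 36.1% in Six2-low. Sox11 took the rest, 15.6%, 11.0% and 10.6% in Six2-high, against 17.6%, 12.7% and 12.7% in Six2-low.

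**Figure D3:**
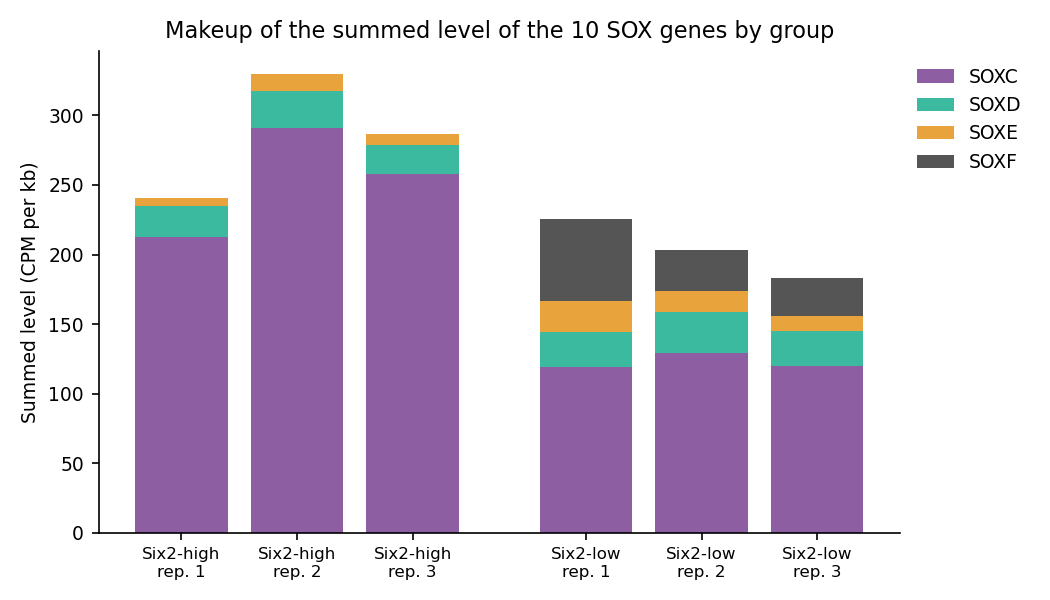
Summed level of the 10 SOX genes in each library, in CPM per kilobase of exon, split by SOX group, with the Six2-high libraries left of the Six2-low libraries. The SOXC part fills 88.2% to 90.0% of each Six2-high bar and 52.8% to 65.3% of each Six2-low bar, and the SOXF part, at most 0.200% in Six2-high, is too thin to see there.

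Of 7 genes listed as SOXC targets in other tissues, 2 rose, 4 fell and 1 did not pass, with a median log2 fold change of -0.37. Dcx, a microtubule protein of migrating neurons, averaged 55.6 ± 14.2 CPM in Six2-high, against 11.4 ± 2.17 CPM in Six2-low (log2 fold change 2.28, SE 0.22, edgeR adjusted p = 5.4e-05). Tead2, a DNA-binding partner of YAP, averaged 468 ± 38.9 CPM in Six2-high, against 243 ± 13.1 CPM in Six2-low (0.95, SE 0.11, adjusted p = 0.00016). Tubb3, Map2, Plxna1 and Nrcam fell, and Ezh2 had a log2 fold change of 0.57 (adjusted p = 0.052). Among 6 WNT effectors that SOX proteins bind, Axin2 (log2 fold change 1.24), Tcf7l1 (1.45) and Tcf7 (0.55) rose, Lef1 (-1.04) fell, and Ctnnb1 (0.22) and Tcf7l2 (0.39) did not pass, with a median of 0.47.

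The SOXD group split. Sox6, which partners SOX9 in cartilage and has been studied in renin cells of the mouse kidney, lies at chr7:115470872-116038796. It had 2.71, 2.32 and 1.77 CPM in Six2-high replicates 1 to 3, against 20.1, 24.2 and 25.6 CPM in Six2-low. The fractions were far apart, with a log2 fold change of -3.35 (SE 0.21, edgeR adjusted p = 4.6e-06), and within preparations the log2 difference was -2.85, -3.34 and -3.80. In bulk samples, fewer cells of a type and less RNA per cell cannot be told apart, and markers of several other cell types fell in Six2-high beside Sox6.

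Sox5, the closest relative of Sox6 and its partner in cartilage, lies at chr6:143828425-144781977. It had 2.33, 0.886 and 1.47 CPM in Six2-high replicates 1 to 3, against 7.51, 8.62 and 6.97 CPM in Six2-low, and all 3 Six2-low libraries lay above all 3 Six2-high ones. Its log2 fold change was -2.28 (SE 0.34, edgeR adjusted p = 0.00058), with the Six2-high libraries the more scattered relative to their mean. Sox5 was among the lowest per length, at 0.109 ± 0.0505 CPM per kilobase in Six2-high and 0.536 ± 0.0584 in Six2-low.

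Sox13, a SOXD protein that binds TCF factors, lies at chr1:133382303-133424377. It had 94.9, 115 and 88.8 CPM in Six2-high replicates 1 to 3, against 100.4, 116 and 99.0 CPM in Six2-low. The fractions overlapped, and in each of them replicate 2 was the highest. The log2 fold change was -0.08 (SE 0.13, edgeR adjusted p = 0.62) and ran from -0.19 to -0.01 over the 15 alternative settings. Per length Sox13 came after the SOXC genes in Six2-high and beside Sox18 in Six2-low, at 23.1 ± 3.12 CPM per kilobase in Six2-high and 24.4 ± 2.22 in Six2-low, and it made up 98.5% to 99.2% of the SOXD sum in Six2-high, against 91.2% to 92.6% in Six2-low.

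Markers of the stroma and mural cells fell in 10 of 11 tested cases, with a summed level of 323 to 341 CPM in Six2-high and 3575 to 4220 CPM in Six2-low. Ren1, the renin gene, had 0 counts in all 6 libraries. So did the globin genes Hba-a1 and Hba-a2, although the globin gene Beta-s had 39679 counts in Six2-low replicate 1. Whether such a 0 reflects absent RNA or reads that were not counted was not tested. Dcn, a stromal matrix proteoglycan, had a log2 fold change of -3.90 and Postn, a matricellular protein, one of -4.84. Foxd1, which marks stromal progenitors, was the 1 that rose (1.33, SE 0.48, edgeR adjusted p = 0.046). Its fractions overlapped, since Six2-high replicate 1, at 49.3 CPM, lay below Six2-low replicates 2 and 3, at 51.5 and 57.3 CPM. Of 5 tested nerve and glia markers 3 fell, Stmn2, a neuronal tubulin-binding protein, by a log2 fold change of -4.70, and 1 rose, Elavl4, a neuronal RNA-binding protein (4.15). Elavl4 averaged 29.0 ± 2.23 CPM in Six2-high, against 1.63 ± 0.689 CPM in Six2-low, and set most of that list's sum of 33.2 to 36.3 CPM in Six2-high, against 7.64 to 14.1 CPM in Six2-low. The part of these cells in the SOXD values was not tested.

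Sox9 fell, but less evenly than the others. A regulator of ureteric branching in the mouse, it lies at chr11:112782224-112787760 and had 22.6, 48.8 and 32.1 CPM in Six2-high replicates 1 to 3, against 92.9, 63.7 and 46.6 CPM in Six2-low. The fractions overlapped, since Six2-high replicate 2 lay above Six2-low replicate 3. The log2 fold change was -0.97 (SE 0.32, edgeR adjusted p = 0.031), with -2.04 in preparation 1 against -0.38 and -0.54 in preparations 2 and 3.

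The call for Sox9 was lost when some single libraries were left out, in fits with fewer samples. Its log2 fold change was -0.76 without Six2-high replicate 1 (edgeR adjusted p = 0.06) and -0.94 without Six2-high replicate 3 (0.091). It was -0.72 without Six2-low replicate 1 (0.091) and -1.02 without Six2-low replicate 2 (0.053). Sox9 still passed without Six2-high replicate 2 (-1.30, adjusted p = 0.0073) and without Six2-low replicate 3 (-1.18, adjusted p = 0.018). Without preparation 1 the log2 fold change was -0.49 (edgeR adjusted p = 0.14), without preparation 3 it was -1.13 (adjusted p = 0.077), and with libraries of the same date tag summed it was -1.20 (adjusted p = 0.058). With the preparation as a block it was past the threshold (adjusted p = 0.034).

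Whether the fractions differed by the same amount at both date tags was tested with an interaction term. For Sox9 it was -1.59 (SE 0.41), with an unadjusted p of 0.0065 and an edgeR adjusted p of 0.27. DESeq2 gave an adjusted p of 0.026, where it called 0.841% of all genes, and edgeR with no filter on low counts gave 0.043, where it called 0.881%. By edgeR with the filter, 0% of all genes were called in this contrast, and 8.18% had an unadjusted p under 0.05, as 1 of the 10 SOX genes did. Each fraction held 1 library of the first date tag, which was assumed to vary like the later ones.

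Sums of markers of the early nephron and ureteric epithelium are given beside Sox9. Early nephron markers summed to 2056, 1158 and 1184 CPM in Six2-high replicates 1 to 3, against 2089, 1923 and 1837 CPM in Six2-low, so the Six2-high library with the least Sox9 had the most of these, while in Six2-low the libraries stood in the same order as for Sox9. Ureteric and collecting duct markers summed to 76.9, 70.1 and 68.1 CPM in Six2-high, against 878, 991 and 1073 CPM in Six2-low. In Six2-high the library with the least Sox9 had the highest sum, and in Six2-low the library with the most Sox9 had the lowest. These orders rest on single genes and do not hold for the list as a whole. Hoxb7 made up 44.6, 45.7 and 35.6 CPM of the Six2-high sums, and Aqp2 made up 84.3, 226 and 253 CPM of the Six2-low sums. Ret, Wnt9b, Gata3 and Hoxb7 were highest in Six2-low replicate 1, as Sox9 was, while Wnt11, Krt8, Aqp2 and Elf5 were lowest there. Wnt9b, a ureteric signal, had 1, 0 and 1 counts in Six2-high replicates 1 to 3, against 966, 552 and 561 counts in Six2-low, and no other marker of the 2 lists had 0 counts in any library. Wnt4, the inducer of nephron epithelium, rose (log2 fold change 1.82). The part of these cells in the Sox9 values was not tested.

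**Figure D4:**
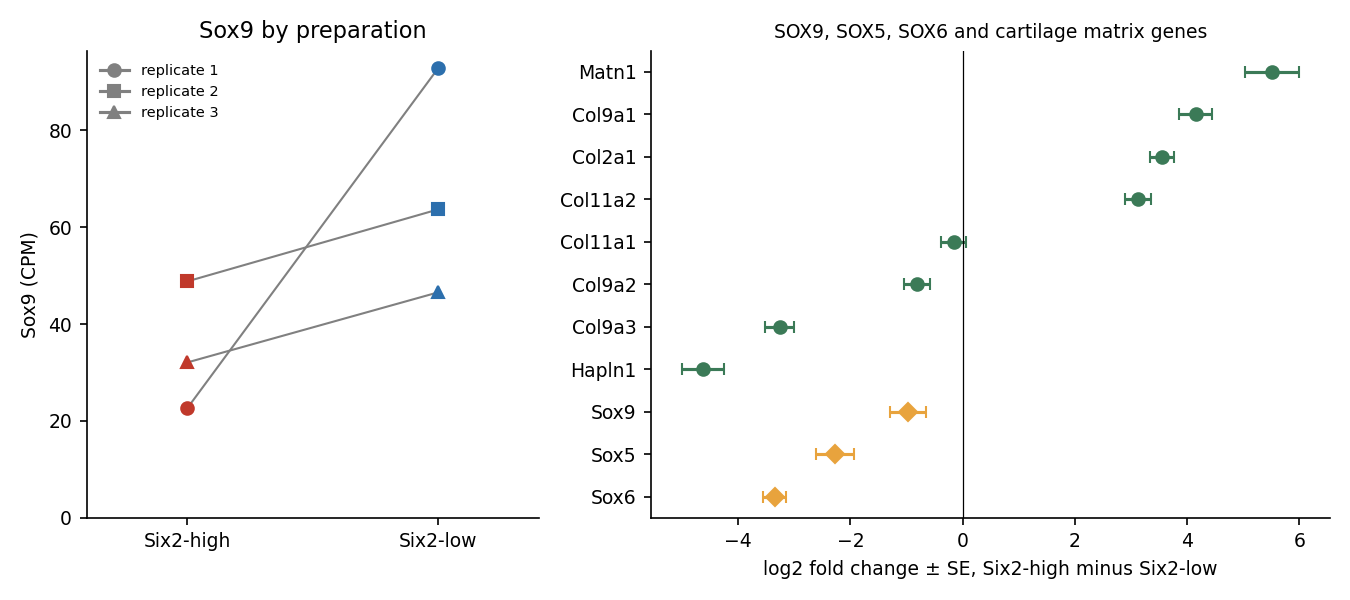
Left, Sox9 in CPM in each library, with lines joining the 2 libraries of a preparation, Six2-high left of Six2-low. Right, log2 fold change (Six2-high minus Six2-low) with its SE for 8 cartilage matrix genes in green and for Sox9, Sox5 and Sox6 in orange. Sox9 is lower in Six2-high in each preparation, from 22.6 against 92.9 CPM in preparation 1 to 48.8 against 63.7 CPM in preparation 2, while 4 matrix genes lie above 0 and 3 below it.

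The cartilage matrix genes that SOX9, SOX5 and SOX6 activate together in chondrocytes did not share a direction. Of 8 tested, 4 rose, 3 fell and 1 did not pass, with a median log2 fold change of 1.48. Col2a1, the main cartilage collagen, had 546, 713 and 553 CPM in Six2-high replicates 1 to 3, against 67.5, 46.6 and 41.0 CPM in Six2-low (3.55, SE 0.22, edgeR adjusted p = 4.3e-06). Col9a1, a collagen that decorates type II fibrils, had 74.4, 48.3 and 54.4 CPM in Six2-high, against 4.74, 2.26 and 2.97 CPM in Six2-low (4.15, SE 0.29, adjusted p = 8.4e-06). Both were well above their Six2-low level in every Six2-high library, opposite in sign to Sox9, Sox5 and Sox6. Matn1 (5.51) and Col11a2 (3.12) rose too, Col9a2 (-0.82), Col9a3 (-3.26) and Hapln1 (-4.63) fell, and Col11a1 had a log2 fold change of -0.16 (adjusted p = 0.58). Acan, Comp and Matn3 did not pass the filter.

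Sox8, the other SOXE gene of ureteric branching, ran opposite to Sox9. It had 5.94, 7.04 and 5.25 CPM in Six2-high replicates 1 to 3, against 2.26, 1.91 and 1.74 CPM in Six2-low, and the fractions did not overlap (log2 fold change 1.63, SE 0.23, edgeR adjusted p = 0.00047). Sox10, the SOXE gene of glia and neural crest, had 0 counts in every Six2-high library, against 65, 17 and 31 counts in Six2-low, and was at least 32.8-fold lower in Six2-high, taking 3 counts over the fraction as the floor (edgeR adjusted p = 0.0019). Among the 8 other SOX genes in the table, Sox15, Sox21 and Sox30 were tested and did not pass, and their means were at most 1.39 CPM in either fraction. Sox1, Sox2 and Sox3 were too low to test, with 4, 0 and 12 counts over Six2-high, against 23, 9 and 13 over Six2-low, and Sry and Sox14 had 0 counts in all 6 libraries.

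Of the 10 genes listed for RET signalling and the ureteric tip, which include Sox8, 5 rose, 3 fell and 2 did not pass, with a median log2 fold change of 0.30. Ret, the receptor of the ureteric tip, averaged 1.01 ± 0.289 CPM in Six2-high, against 92.9 ± 6.06 CPM in Six2-low (-6.55, SE 0.20, edgeR adjusted p = 3.6e-07). Wnt11, a signal of the tip, fell as well (-2.45). Those that rose were Gfra1 (1.25), Etv4 (1.83), Etv5 (0.44), Cxcr4 (2.52) and Sox8, while Spry1 (0.17) and Dusp6 (0.09) did not pass.

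The SOXF genes were near the detection floor in Six2-high. Sox17, an arterial and endodermal regulator at chr1:4490931-4497354, had 9, 3 and 4 counts in Six2-high replicates 1 to 3, against 1371, 763 and 895 counts in Six2-low. As CPM these were 0.313, 0.127 and 0.196 in Six2-high, against 50.7, 29.8 and 28.9 in Six2-low. The gap was wider than any spread within a fraction, with a log2 fold change of -7.35 (SE 0.38, edgeR adjusted p = 2.1e-06).

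Sox18, a lymphatic and vascular regulator at chr2:181669836-181671640, had 14, 11 and 6 counts in Six2-high replicates 1 to 3, against 1810, 823 and 911 counts in Six2-low. In CPM it had 0.487, 0.464 and 0.295 in Six2-high, against 67.0, 32.1 and 29.4 in Six2-low, where replicate 1 stood above the other 2. The log2 fold change was -6.64 (SE 0.44, edgeR adjusted p = 6.1e-06). Sox18 was the SOXF gene with the highest level per length, at 0.256 ± 0.0648 CPM per kilobase in Six2-high and 26.4 ± 12.9 in Six2-low, where it came after Sox12 and Sox4 and its libraries overlapped those of Sox13.

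Sox7, which acts beside Sox17 and Sox18 in vessels, lies at chr14:63943673-63950732. It had 11, 2 and 0 counts in Six2-high replicates 1 to 3, against 612, 315 and 310 counts in Six2-low. A count of 0 in Six2-high replicate 3 allows up to 0.147 CPM, on a floor of 3 counts that covers counting error only, against 10.0 CPM in Six2-low replicate 3. The log2 fold change was -6.39 (SE 0.66, edgeR adjusted p = 6.8e-05). It was -8.23 without Six2-high replicate 1, which held 11 of the 13 Six2-high counts, and -7.83 without preparation 1, and over all 15 alternative settings it ran from -8.23 to -5.91. Sox7 and Sox17 overlapped per length in both fractions.

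Endothelial markers fell with the SOXF genes. Their 12 genes, none at 0 in either fraction, summed to 40.1, 35.1 and 37.5 CPM in Six2-high replicates 1 to 3, against 1675, 984 and 993 CPM in Six2-low, so the Six2-high sum was 3.09% of the Six2-low sum. Of the 12, Egfl7 and Plvap made up 80.5%, 83.9% and 85.2% of the Six2-high sum, against 24.7%, 22.3% and 22.9% of the Six2-low sum, and the other 10 summed to 0.682% of their Six2-low level. Sox17 kept 0.581%, Sox18 0.969% and Sox7 1.04% of its mean Six2-low level. These values lie among those of the markers, with Cdh5, an endothelial cadherin, at 0.329%, Robo4 at 0.355%, Pecam1 at 0.433% and the VEGF receptor Kdr at 0.631%, and Egfl7 and Plvap at 10.9% each. The summed SOXF level was 2.95%, 1.92% and 1.31% of the endothelial sum in Six2-high, against 8.38%, 7.54% and 6.87% in Six2-low. Leaving out Egfl7 and Plvap, a choice made after seeing the data, it was 15.1%, 11.9% and 8.85% of the sum of the other 10 in Six2-high, against 11.1%, 9.70% and 8.92% in Six2-low, and the fractions overlapped. The part of endothelial cell number in the SOXF values was not tested.

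**Figure D5:**
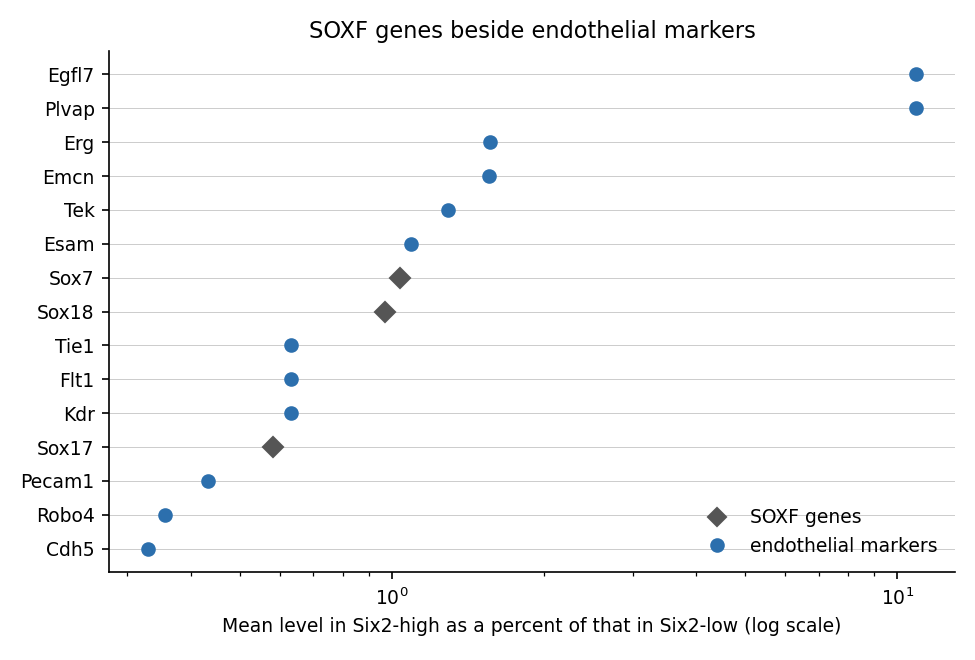
Mean level in Six2-high as a percent of the mean level in Six2-low, on a log scale, for the 3 SOXF genes (grey diamonds) and 12 endothelial markers (blue circles), ordered by that percent. Sox17 at 0.581%, Sox18 at 0.969% and Sox7 at 1.04% lie inside the range of the markers, from Cdh5 at 0.329% to Egfl7 and Plvap at 10.9%.

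The arterial and vascular genes that work with SOXF proteins fell less uniformly, with 10 of 14 lower, 2 higher and 2 not past the test, and a median log2 fold change of -1.39. Notch4, an endothelial Notch receptor, averaged 7.63 ± 0.527 CPM in Six2-high, against 56.1 ± 10.3 CPM in Six2-low (-2.88, SE 0.17, edgeR adjusted p = 3.2e-06). Dll4, the arterial Notch ligand, averaged 0.334 ± 0.159 CPM in Six2-high, against 20.9 ± 6.18 CPM in Six2-low (-6.01, SE 0.38, adjusted p = 4.6e-06). Nr2f2, a venous and mesenchymal nuclear receptor, rose (1.32), as did Rbpj, the DNA-binding effector of Notch (0.75), and Hey1 (0.75) and Hey2 (-0.02) did not pass.

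Ordered by mean level per length, the SOX genes ran Sox12, Sox4, Sox11, Sox13, Sox9, Sox18, Sox6, Sox5, Sox7 and Sox17 in Six2-high. In Six2-low they ran Sox12, Sox4, Sox18, Sox13, Sox11, Sox9, Sox17, Sox7, Sox6 and Sox5. Neighbours whose libraries overlapped were Sox12 and Sox4, Sox18 and Sox6, Sox6 and Sox5, Sox5 and Sox7, and Sox7 and Sox17 in Six2-high, and Sox18 and Sox13, Sox11 and Sox9, and Sox17 and Sox7 in Six2-low. Dividing by the longest transcript instead put Sox6 before Sox18 and Sox17 before Sox7 in Six2-high, and Sox13 before Sox18 in Six2-low.

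Reads of some members cannot be told apart by position alone from those of overlapping genes. The sources used here leave unstated whether counting used strand. Sox4 shares 2616 exon bases with Gm26735, Sox5 shares 1330 with Sox5os1 and Sox17 shares 804 with Gm37587 in GENCODE M21. None of these 3 overlapping genes is a row of the deposited table, so their part in the 3 counts is uncertain.

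The first date tag was set against the later one within the TRI kit, with the 2 fractions of a preparation as replicates. Each date tag was a single preparation here, so date and preparation cannot be told apart. The 2 fractions of a preparation are not independent samples of a date. The later side held Six2-high replicate 3, the library high in Rn45s. No SOX gene was called by edgeR, where 0.769% of all genes were. The 3 SOXF genes were higher at the first date tag, with log2 differences of 1.13 for Sox18 (SE 0.19, edgeR adjusted p = 0.063), 0.81 for Sox17 (adjusted p = 0.074) and 1.35 for Sox7 (adjusted p = 0.12). Sox11 differed by 0.37 (adjusted p = 0.11) and Sox12 by -0.43 (adjusted p = 0.1). These 5 of the 10 had an unadjusted p under 0.05, as did 21.5% of all genes. DESeq2 called 3 of them, Sox11 (adjusted p = 0.05, rounded from just below it), Sox12 (0.0044) and Sox18 (0.033), beside 4.88% of all genes, and edgeR with no filter called Sox18 (0.03), beside 2.00% of all genes. In Six2-low replicate 1, where the SOXF genes were highest, the endothelial sum was 1675 CPM against 984 and 993 CPM in the other 2 Six2-low libraries, and the summed erythroid markers, led by the globin gene Beta-s, were at 1615 CPM against 134 and 135 CPM. Their part in the date values was not tested. In Six2-high the SOXF genes held only 0 to 14 counts per library. Their date differences therefore rest mainly on the 2 TRI libraries of Six2-low.

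The Norgen kit was set against the TRI kit at the later date tag. Each kit was a single preparation there, so kit and preparation cannot be told apart. The TRI side again held Six2-high replicate 3. No SOX gene was called by edgeR. DESeq2 gave an adjusted p to 5 of the 10 and called none of these, beside 3.83% of all genes. By edgeR, 0% of all genes were called and 18.8% had an unadjusted p under 0.05, and 1 SOX gene did, Sox13, at a log2 difference of 0.30 (SE 0.08, unadjusted p = 0.0093, adjusted p = 0.17).

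For each called SOX gene, the genes with the most similar pattern of log2 CPM over the 6 libraries were taken from 10183 candidates, by Pearson's r. Other SOX genes were left out of the candidates. The 6 libraries fall into 2 fractions, so any gene that differs between them scores high, and r is given as a description. Sox4 was closest to Zfp553 (r = 0.9995) and Cap2 (0.9992), Sox11 to Ddx27 and Zfp760 (0.9987 each), and Sox12 to Cacna2d1 (0.9982) and Lpin2 (0.9981). Sox6 was closest to Acer2 (0.9997) and B3gat2 (0.9996), and Sox5 to Fbln5 (0.9958) and Oxr1 (0.9954). Among the SOXF genes, Sox17 was closest to Ccdc3 (0.9996) and Nrp2 (0.9995), Sox18 to Prex2 (0.9996) and Jup (0.9995), and Sox7 to Chst3 (0.9987) and Samd10 (0.9983). Sox9 had the least company, with Scyl3 (0.9892) and Nfkb2 (0.9856) nearest and 24 genes above an r of 0.95, against 440 to 1408 genes for the other 8.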

How the data were processed

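The deposited table of raw counts per gene symbol was used; a normalised table of the same libraries was not used. The submitters' processing notes list mm10 as build and TopHat2 2.1.0, HTSeq 0.6.1p1, SAMtools and DESeq2 as tools, with no role stated; the annotation is not given in those notes. Of 23420 genes, 3662 had 0 counts in every library. Library totals are the sums of the authors' counts.

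Counts were analysed in R 4.3.3 with edgeR 4.0.16: filterByExpr, TMM scaling, and quasi-likelihood F tests, two-sided, with Benjamini-Hochberg adjustment over 15347 genes and a threshold of 0.05. Fractions were compared without a block; kit and date contrasts came from fraction plus preparation, and the interaction from fraction by date tag. CPM uses the TMM-scaled library size, and exon length is the union of exons in GENCODE M21 (mm10). The SE is the coefficient divided by the root of F. On data simulated for the fraction comparison, 92.0% of 200 genes changed 4-fold were recovered, with 7.49% of calls false, over 15347 genes. The false share was 9.92% for the kit, 11.1% for the date and 8.91% for the interaction contrast. All 4 shares were above the nominal threshold. Far fewer genes were changed than were called between the fractions, and smaller changes were not simulated. No replicates of a fraction were alike within sampling noise (chi-square per degree of freedom 16.1 to 200.0).

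The titles tie the libraries of a preparation by date tag and kit, and their deviations from the fraction means correlated at 0.37, 0.42 and 0.33 for preparations 1, 2 and 3. Alternatives were RLE scaling, no filter, DESeq2 1.42.0, the preparation as a block, leaving out each library or preparation, summing same-date libraries, dropping Rn45s and Lars2, and the longest transcript as length.

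The members and gene lists were chosen with earlier results of these data known. Named genes are the members, the other tested SOX genes, in each list the 2 of smallest p, and the 2 most similar in pattern. The search for similar patterns left out SOX genes, predicted genes and genes under 10 CPM on average. Further genes were named after their values were seen. Some genes that this rule names are not reported here.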

Additional observations from a re-analysis of the deposited data

How the results depend on the processing

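All SOX genes except Sox9, 9 of the 10, kept their direction and their side of the threshold under all 15 alternatives to the fraction comparison; Sox9 was past the threshold in 8 of the 15, over a range of log2 fold changes from -1.35 to -0.49 and of edgeR or DESeq2 adjusted p from 0.0044 to 0.14. With the preparation as a replicate block, 3 SOX genes rose and 6 fell, as without it, no SOX gene changing its call, and over all genes 4860 rose and 5059 fell, against 3285 and 4401 without it. The number of all genes called higher was 1995 with same-date libraries summed, and ran from 1329 to 3183 over the fits that leave out a library or a preparation, at 2160 without Six2-low replicate 2, 2086 without preparation 2 and 1329 without preparation 3, in fits with fewer samples. SOX genes called by date tag numbered 0 by edgeR, 1 with no filter and 3 by DESeq2, beside 118, 396 and 749 of all genes, and by the interaction 0, 1 and 1, beside 0, 174 and 129. Values near 0 changed sign: Sox17 by kit (-0.01 by DESeq2), Sox4 by date (0.00 by RLE scaling and by DESeq2), Sox6 by date (0.02 by DESeq2), and Sox13 in the interaction (0.04 by RLE scaling, 0.01 with no filter and 0.04 by DESeq2). The cause was not tested. With the longest transcript as length, levels per kilobase of Sox5, Sox6, Sox13 and Sox17 moved by more than 1 SD. Added after seeing the data, an endothelial sum without Egfl7 and Plvap put the mean SOXF percentage of it at 12.0% in Six2-high and 9.92% in Six2-low, against 2.06% and 7.60% with them. Depth limits the SOXF genes in Six2-high, where 0 to 14 counts per library were read.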
